A study of Caenorhabditis elegans with 18 samples.

Results

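Fatty acids are burned only after they have been activated and moved to the organelle that oxidizes them, and the genes for these steps were followed here through 6 genotypes of adult *C. elegans*. The genes were chosen by name: every gene whose symbol starts with *acs*, *cpt*, *acdh*, *acox*, *ech*, *maoc*, *hacd* or *kat* followed by a number, besides *daf-22*, whose normalized count averaged 10 or more over the 18 libraries. Without *cpt-3*, 61 of the 24998 genes in the deposited table carried such a symbol. Of these, 58 reached the minimum, and they are described among the 13472 genes of all kinds that did. The 3 genes under the minimum were *acs-9* (mean 9.05), *acs-24* (9.67) and *acs-15* (7.19), while the members nearest to it from above were *acdh-5* (12.8) and *acs-18* (15.8). *cpt-3*, which the choice left out by name, had a mean of 216. By prefix there were 19 *acs*, 13 *acdh*, 10 *ech*, 7 *acox* and 5 *cpt* genes and 1 each of *daf-22*, *hacd-1*, *kat-1* and *maoc-1*.

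The study sequenced mRNA from populations of whole, synchronized hermaphrodites on day 1 of adulthood, with 3 biological replicate libraries per genotype. Beside the wild-type strain N2, mutants carried *fbxl-5(rhd43)*, *lin-29(n333)* or *rict-1(mg360)* alone, or the first of these together with either of the other two, and all 6 genotypes were grown alike on *E. coli* OP50. *fbxl-5* encodes an F-box protein, a substrate receptor for ubiquitin ligases, and *rhd43* is a nonsense allele. *lin-29* encodes the zinc finger transcription factor that ends larval development in the epidermis. *rict-1* encodes Rictor, the defining subunit of the kinase complex mTORC2, and *mg360* is an amino acid substitution, which need not abolish the protein's activity. The comparisons ask how the loss of each gene altered mRNA levels, and whether the loss of *fbxl-5* acted alike in wild-type, *lin-29* and *rict-1* animals.

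As background, an acyl-CoA synthetase (ACS) joins a fatty acid to coenzyme A. Carnitine palmitoyltransferases (CPT) then carry long chains into mitochondria, where acyl-CoA dehydrogenases (ACDH), enoyl-CoA hydratases (ECH), hydroxyacyl-CoA dehydrogenases (HACD) and thiolases such as KAT-1 remove carbon units in a repeated cycle. In peroxisomes a parallel cycle of acyl-CoA oxidases (ACOX), MAOC-1, DHS-28 and DAF-22 shortens very long chains and the side chains of ascarosides, the pheromones of nematodes. In worms the intestine is the main site of fat storage and fat breakdown.

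A normalized count is the number of reads on a gene divided by the size factor of its library, so values of a gene can be compared between libraries. Each library had between 13434120 and 29733059 reads assigned to genes, and the 58 genes took 0.569% to 0.761% of the reads that were not on ribosomal RNA genes. One library stood apart: in *fbxl-5* replicate 3 the share of reads on ribosomal RNA genes was 30%, against at most 4.49% in the others. RNA of the mutated genes was still present in the mutants. *fbxl-5* had 86.5 to 110 normalized counts in wild-type and 138 to 141 in *fbxl-5* mutants, *lin-29* had 96.0 to 106 in wild-type and 135 to 206 in *lin-29* mutants, and *rict-1* had 2767 to 3249 and 2120 to 3025 in wild-type and *rict-1* mutants. Point mutations can leave mRNA in place, so these levels do not test the labels.

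Levels between genes are compared per kilobase of exon. The order was led by *acdh-1*, the acyl-CoA dehydrogenase of the propionate shunt, at 14111 normalized counts per kilobase, followed by *ech-6*, the hydratase of the same route, at 8269. Next came *acs-13* at 6262, *acs-19*, an acetyl-CoA synthetase, at 4932, *acs-4* at 4247, *ech-1.2*, the homologue of the mitochondrial trifunctional protein's large subunit, at 3494, and *kat-1* at 3216. At the other end stood *acs-18* at 7.16, *acdh-5* at 8.87, and *acs-6* and *acs-10*, both at 11.7. The highest member was 1970 times the lowest, 20 members were at or above 1000 per kilobase and 14 were under 100. Within prefixes the highest and lowest were *cpt-1* (2350) and *cpt-5* (65.6), *acox-1.5* (691) and *acox-1.2* (67.3), and *ech-6* (8269) and *ech-1.1* (26.5). In normalized counts not divided by length, *acdh-1* alone gave 16.5% of the sum over the 58 genes, the top 5 genes gave 51.1% and the top 10 gave 70.4%.

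**Figure D1:**
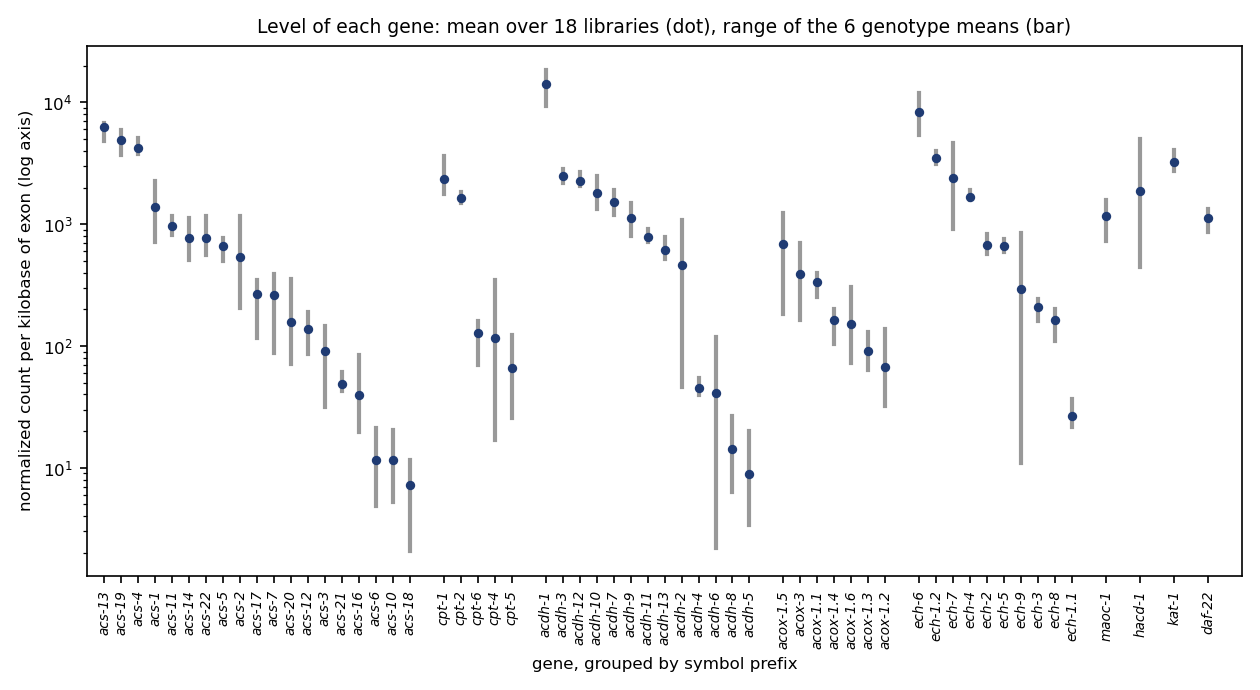
Level of each of the 58 genes in normalized counts per kilobase of exon on a log axis, grouped by symbol prefix. Dots are means over the 18 libraries and bars span the lowest to the highest of the 6 genotype means. *acdh-1* is highest at 14111 and *acs-18* lowest at 7.16, and *ech-9*, *acdh-6* and *acdh-2* have the longest bars.

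The highest and lowest genotype means differed by more than 1 on the log2 scale for 33 genes and by more than 2 for 19. Such ranges were not computed for all genes tested. The median standard deviation between replicates was 0.21, but some genes of wide range also varied widely between replicates. *acs-18* had a range of 2.07 and a standard deviation of 0.85, and *acdh-8* 1.68 and 0.74. Neither was called against wild-type. A gene was called when limma's moderated test, fitted to log2(normalized count + 1) of all 18 libraries, gave a Benjamini-Hochberg adjusted p under 0.01 over the 13472 genes. Of the 58 genes, 16 were called in none of the 5 comparisons with wild-type, 11 in 1, 17 in 2, 8 in 3 and 6 in 4.

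Loss of *lin-29* gave 30 calls against wild-type, with 17 genes higher and 13 lower. That is 51.7% of the 58 genes, against 41.0% of all genes tested (22.6% higher and 18.4% lower). The *lin-29; fbxl-5* double mutant gave 31 calls, 13 higher and 18 lower, against 39.0% of all genes (19.5% higher and 19.5% lower). In *rict-1* there were 18 calls, 9 in each direction, or 31% of the 58 genes against 16.4% of all genes (10.7% higher and 5.78% lower). In *rict-1; fbxl-5* there were 10, 2 higher and 8 lower, against 10.9% of all genes (7.36% higher and 3.56% lower). Loss of *fbxl-5* alone gave 4 calls, all lower, against 2.56% of all genes (0.586% higher and 1.97% lower). In these bulk libraries of whole animals, fewer cells of a type and less RNA per cell cannot be told apart.

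**Figure D2:**
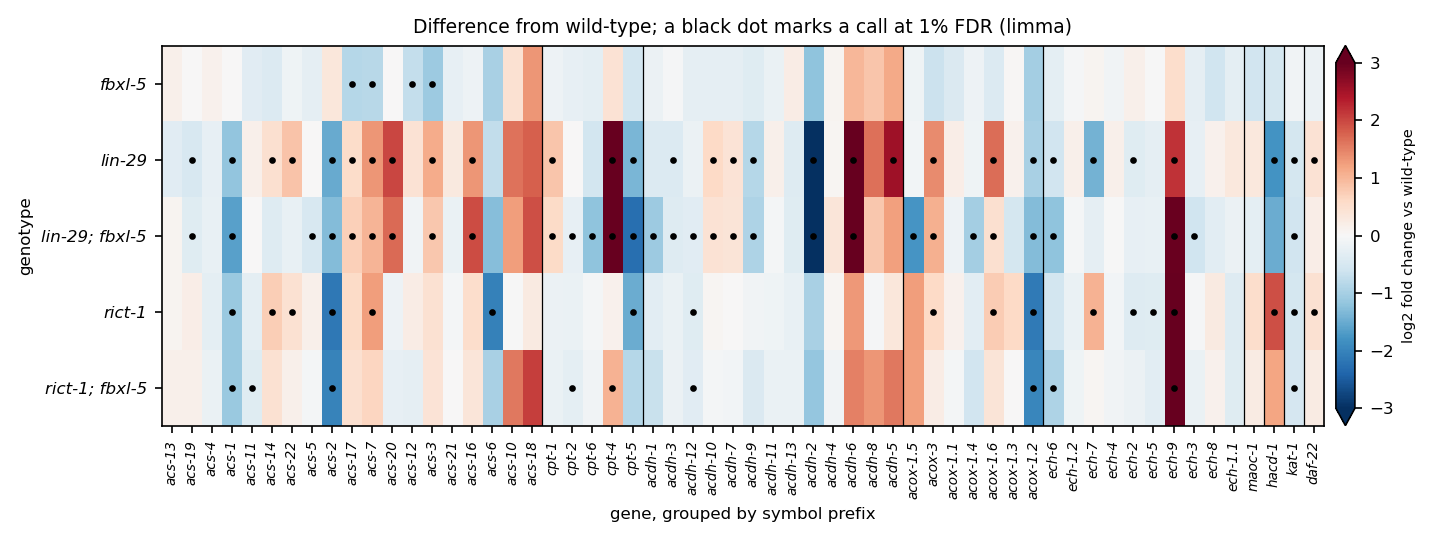
Log2 fold change against wild-type of the 58 genes (columns, grouped by prefix and ordered by level) in the 5 mutant genotypes (rows). Colour runs from -3 (blue) to 3 (red) and larger values take the end colours, and black dots mark calls at 1% FDR. The *lin-29* row has 30 dots, the *rict-1* row 18 and the *fbxl-5* row 4.

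**Figure D3:**
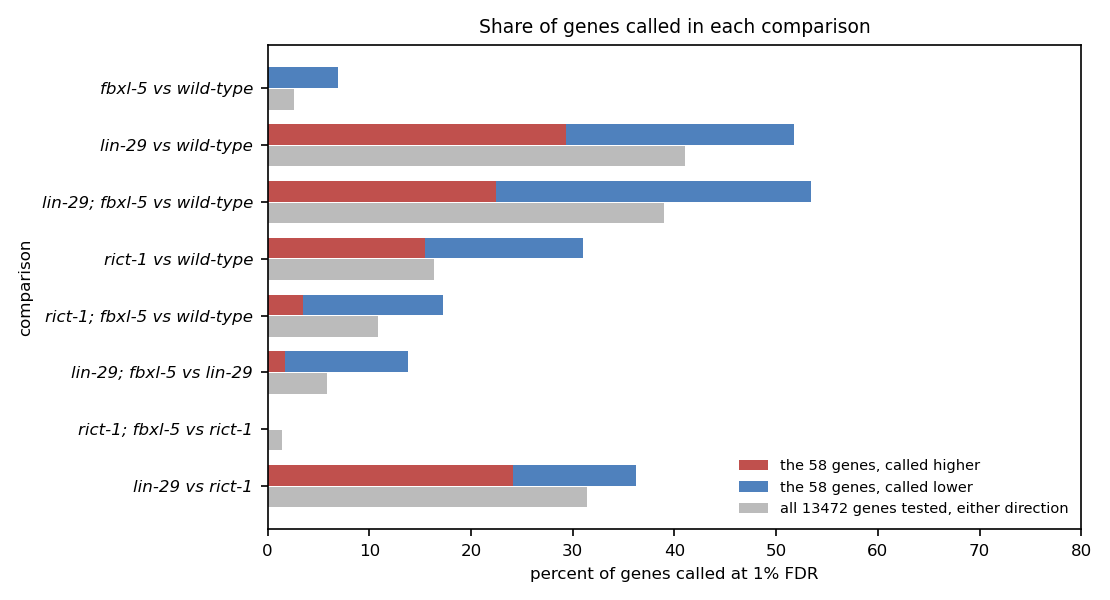
Percent of the 58 genes called higher (red) and lower (blue) in 8 comparisons, above the percent of all 13472 genes called in either direction (grey). The upper bar is longer in all comparisons but the one of *rict-1; fbxl-5* with *rict-1*, where none of the 58 genes was called.

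Tested directly against each other, *lin-29* and *rict-1* differed in 21 of the 58 genes, 14 higher and 7 lower in *lin-29*, against 31.4% of all genes (17% higher and 14.4% lower). Higher in *lin-29* were *acs-11*, *acs-20*, *acs-22*, *cpt-1*, *cpt-4*, *acdh-5*, *acdh-6*, *acdh-7*, *acdh-10*, *acdh-11*, *acox-1.2*, *acox-1.6*, *acox-3* and *ech-1.2*, and lower were *acs-19*, *acdh-2*, *acdh-9*, *acox-1.5*, *ech-7*, *ech-9* and *hacd-1*. The comparisons of both mutants with wild-type share the wild-type libraries, and their values are given side by side for each gene.

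Cell type markers also moved between the genotypes. The 7 intestine markers summed to 12844 to 14835 normalized counts in wild-type, 15887 to 21255 in *lin-29* (4 of 7 called higher) and 20427 to 22880 in *rict-1* (5 of 7 higher). Against wild-type sums of 20884 to 34895, the 5 muscle markers reached 40520 to 80282 in *lin-29* (3 of 5 higher). The 9 early embryo markers, of which *med-1* was at 0 in 15 libraries and *med-2* in 11, summed to 342 to 462 in wild-type and 57.2 to 155 in *lin-29* (2 of the 7 tested called lower). The 9 oocyte and germline markers ran from 210091 to 260590 in wild-type and from 165448 to 177467 in *lin-29* (4 of 9 lower), and from 169004 to 251178 in *rict-1* (0 of 9 called). Of the 6 epidermis markers, which summed to 12983 to 18510 in wild-type and 6388 to 11020 in *lin-29*, 4 were called higher and 1 lower there. Their median log2 fold change in *lin-29* was 3.28, although the sum was lower. *col-19* weighs most in the sum, with a mean of 8817 over the 18 libraries, against 1603 for *col-10*, the next highest. The 8 sperm markers summed to 36.3 to 73.7 in wild-type and 142 to 399 in *lin-29* (5 of the 7 tested called higher), and the 5 neuron markers to 3128 to 3389 and 3591 to 3706. Their part in the differences described for the oxidation genes was not tested.

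Among the genes that activate fatty acids, *acs-1* and *acs-2* fell in both mutants. *acs-2* encodes a synthetase that feeds mitochondrial oxidation and is known as a target of the nuclear receptor NHR-49. Its 3 wild-type libraries held 1774, 2068 and 1876 normalized counts, those of *lin-29* 565, 734 and 719, and those of *rict-1* 351, 442 and 500. Every mutant library lay under every wild-type library. The log2 fold changes were -1.51 ± 0.24 (SE) in *lin-29* (limma adjusted p = 6.5e-05) and -2.15 ± 0.24 in *rict-1* (limma adjusted p = 6.8e-06). In the double mutants *acs-2* stayed low, at 476 to 1157 with *lin-29* and 411 to 512 with *rict-1*. The *nhr-49* mRNA itself was called in no comparison, at 2217 to 2429 in wild-type, 2380 to 2561 in *lin-29* and 2099 to 2695 in *rict-1*.

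*acs-1*, a long-chain synthetase needed for the use of monomethyl branched-chain fatty acids, lies on chromosome V. It held 4845, 5530 and 5735 normalized counts in wild-type, 2024, 2268 and 2850 in *lin-29*, and 2437, 2568 and 2386 in *rict-1*. Both mutants were below wild-type without overlap and close to each other, with log2 fold changes of -1.18 ± 0.10 and -1.12 ± 0.10 and a difference between *lin-29* and *rict-1* of -0.06 ± 0.10. In *lin-29; fbxl-5* the level was lower again, at 1772, 1669 and 1731, which was -0.45 ± 0.10 against *lin-29* (limma adjusted p = 0.0063). *rict-1; fbxl-5* libraries held 2545, 2470 and 2419 and overlapped *rict-1*.

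In *lin-29* 7 of the 19 synthetases were called higher and 3 lower, against 22.6% and 18.4% of all genes. Those higher were *acs-3*, *acs-7*, *acs-14*, *acs-16*, *acs-17*, *acs-20* and *acs-22*, several of them with known roles outside oxidation. *acs-20* and *acs-22* encode relatives of mammalian fatty acid transport proteins and are known for the barrier function of the cuticle. *acs-20* held 221, 211 and 193 in wild-type and 1248, 849 and 545 in *lin-29*, without overlap, a log2 fold change of 2.00 ± 0.21 (limma adjusted p = 1.1e-06). In *rict-1* it was at 197, 174 and 193, so that *lin-29* and *rict-1* differed by 2.15 ± 0.21. *acs-3*, which acts with the nuclear receptor NHR-25 in epidermal seam cells, rose from 144, 151 and 124 in wild-type to 350, 348 and 230 in *lin-29* (log2 fold change 1.12 ± 0.20). The *nhr-25* mRNA rose in *lin-29* by 1.31 ± 0.27 and in *rict-1* by 1.72 ± 0.27. *acs-7*, a synthetase of ascaroside biosynthesis, rose in both mutants, from 243, 244 and 293 to 499, 685 and 796 in *lin-29* and 633, 669 and 563 in *rict-1*. Its log2 fold changes of 1.32 ± 0.17 and 1.26 ± 0.17 differed by 0.06 ± 0.17. *acs-16* rose only in the calls of *lin-29* and its double mutant, at 31.6 to 53.8 in wild-type, 88.8 to 125 in *lin-29* and 141 to 223 in *lin-29; fbxl-5*.

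Of the 3 most abundant synthetases, only *acs-19* was called against wild-type. *acs-13* held 14649 to 18467 normalized counts in wild-type and 11839 to 14409 in *lin-29*, a log2 difference of -0.35 ± 0.13 that was not called. *acs-4* lay between 8602 and 14760 over all 18 libraries and was called nowhere. *acs-19* fell in *lin-29* from 12874, 12233 and 10906 to 8562, 8431 and 8707, without overlap, by 0.48 ± 0.10 on the log2 scale, and was not called in *rict-1* (0.21 ± 0.10). The low *acs-6* fell in *rict-1*, from 31.6, 50.4 and 38.2 to 6.12, 10.9 and 10.3, and its log2 fold change of -2.03 ± 0.41 rests on few reads.

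The carnitine transferases split. *cpt-1*, the outer membrane enzyme that commits long chains to mitochondria, rose in *lin-29* from 6000, 5807 and 5307 normalized counts to 10828, 10824 and 8805. These libraries did not overlap and the log2 fold change was 0.83 ± 0.11 (limma adjusted p = 1.6e-05), while in *rict-1* the value was -0.18 ± 0.11 and not called. *cpt-2*, the inner membrane partner, was at 3874 to 4000 in wild-type and 3845 to 4023 in *lin-29*, a difference of 0.00 ± 0.07. It was called lower than wild-type in *lin-29; fbxl-5* and in *rict-1; fbxl-5*, though in neither *lin-29* nor *rict-1* alone. *cpt-4* showed the largest rise of the prefix, from 30.4, 45.7 and 41.8 in wild-type to 494, 562 and 692 in *lin-29* and 654, 1176 and 611 in *lin-29; fbxl-5*. All 6 of these mutant libraries stood far above the rest, with log2 fold changes of 3.86 ± 0.26 and 4.29 ± 0.26. In *rict-1* *cpt-4* was at 36.7, 47.5 and 44.8, inside the wild-type range but for 1 library. In *rict-1; fbxl-5* it was called higher than wild-type, with a smaller log2 fold change of 1.05. *cpt-5* went the other way, from 262, 302 and 274 in wild-type to 82.9, 142 and 107 in *lin-29* and 72.6, 122 and 107 in *rict-1*, falling by 1.36 ± 0.24 and 1.5 ± 0.24. *cpt-6* fell only in the *lin-29; fbxl-5* calls, at 159, 133 and 203 against 368, 384 and 381 in wild-type.

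**Figure D4:**
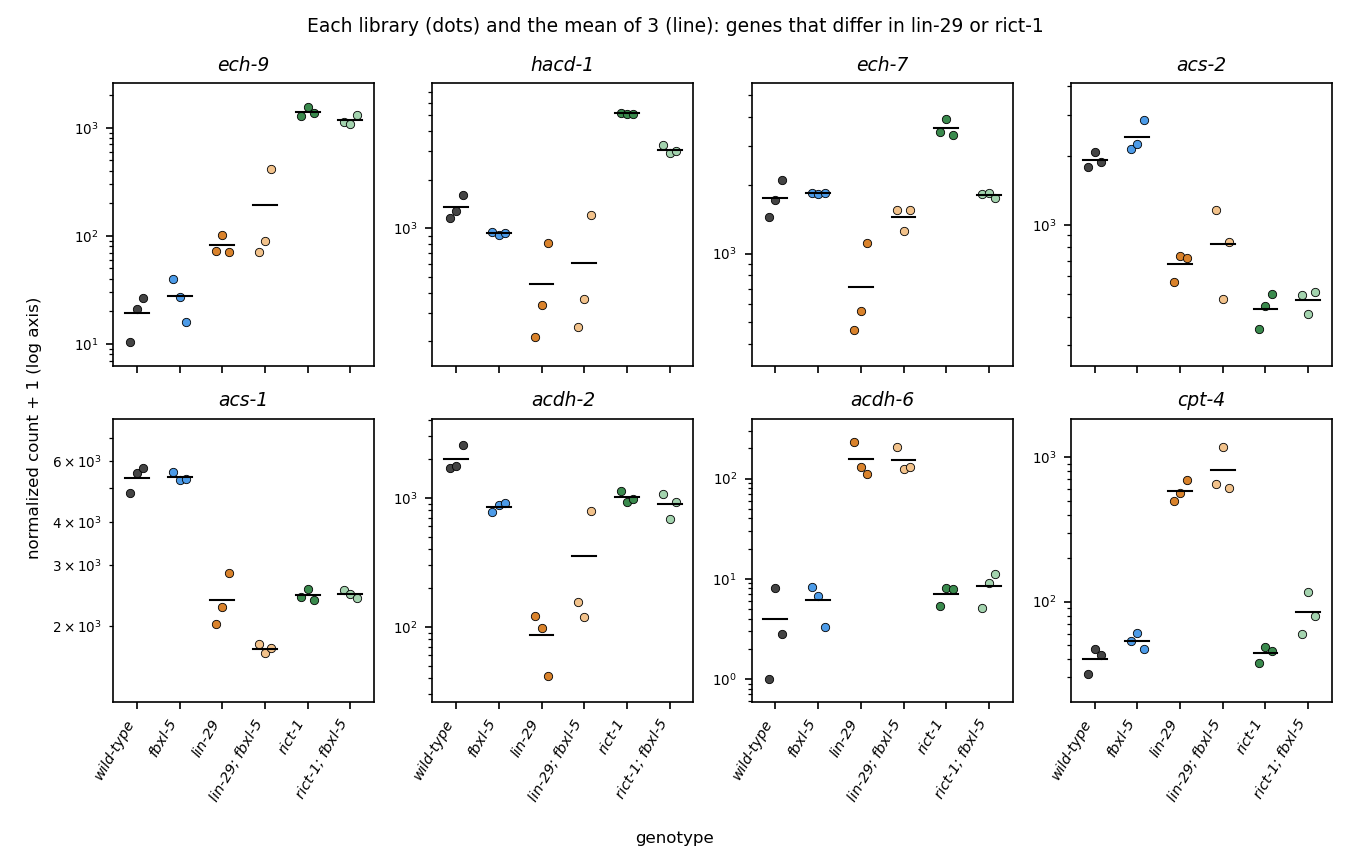
Normalized count + 1 (log axis) of 8 genes in each library (dots) of the 6 genotypes, with the mean of 3 (line). *ech-9* reaches 1291 to 1554 in *rict-1* against 9.36 to 25.4 in wild-type, *hacd-1* and *ech-7* lie under wild-type in *lin-29* and above it in *rict-1*, and *acdh-6* and *cpt-4* are highest in the 6 libraries with the *lin-29* mutation.

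Of the 13 acyl-CoA dehydrogenases, 4 rose and 3 fell in *lin-29*, against 41.0% of all genes called there, 3 rose and 5 fell in *lin-29; fbxl-5*, against 39.0%, and 1 fell in *rict-1*, against 16.4%. *acdh-6* was nearly silent in wild-type, with 0, 7.03 and 1.82 normalized counts, and held 229, 129 and 111 in *lin-29* and 204, 123 and 131 in *lin-29; fbxl-5*. No other genotype had a library above 10.1. The log2 fold change in *lin-29* was 5.73 ± 0.58 (limma adjusted p = 6.6e-07), a value that depends on the added 1 since the wild-type libraries hold so few reads, and it was 4.37 with 5 added. *acdh-5* rose from 1.17, 7.03 and 6.36 to 22.1, 28.6 and 36.1. *acdh-10* and *acdh-7*, relatives of the medium-chain enzyme, rose by 0.61 ± 0.07 and 0.41 ± 0.10, and these genes lie 114 bases apart on chromosome X and on the same strand.

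The deepest fall of all 58 genes in *lin-29* was that of *acdh-2*, a close relative of *acdh-1*. Its wild-type libraries held 1713, 1774 and 2556 normalized counts and the *lin-29* libraries 120, 96.5 and 40.6, without overlap, a log2 fold change of -4.65 ± 0.55 (limma adjusted p = 8.3e-06). In *lin-29; fbxl-5* replicates 1 and 3 held 154 and 791 and replicate 2 fewer than either, so 1 of the 3 libraries stood well above the other two. *fbxl-5* libraries held 769, 880 and 915 and *rict-1* libraries 1120, 931 and 978. Both were below every wild-type library, yet neither difference was called, at -1.22 ± 0.55 and -0.98 ± 0.55. *acdh-9* fell in *lin-29* from 2072, 1908 and 2025 to 1029, 1121 and 1146. *acdh-12*, the very-long-chain enzyme, fell in *rict-1* from 5670, 5453 and 5249 to 4346, 4177 and 4134 (-0.37 ± 0.07) and was not called in *lin-29* (-0.17 ± 0.07).

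*acdh-1* and *ech-6* belong to the propionate shunt, which degrades propionate when vitamin B12 is scarce and continues through HACH-1, HPHD-1 and ALH-8. *acdh-1* held 27860, 31032 and 34744 normalized counts in wild-type. It was at 25823, 19257 and 25274 in *lin-29* (-0.42 ± 0.23, not called) and 22979, 8829 and 14993 in *lin-29; fbxl-5* (-1.1 ± 0.23, limma adjusted p = 0.00075). The *lin-29; fbxl-5* libraries spread widely and all lay below wild-type. *ech-6* fell from 11175, 11846 and 13635 in wild-type to 8132, 7325 and 9082 in *lin-29* (-0.58 ± 0.15), to 6803, 3757 and 5789 in *lin-29; fbxl-5* (-1.2 ± 0.15) and to 6442, 6405 and 6248 in *rict-1; fbxl-5* (-0.94 ± 0.15).

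Of the later enzymes of the shunt, *alh-8* fell in *lin-29* from 21231, 24067 and 20980 to 16396, 16139 and 18961, by 0.37 ± 0.10 on the log2 scale. *hach-1* fell in 4 mutants, by 0.81 ± 0.18 in *lin-29*, 1.15 ± 0.18 in *lin-29; fbxl-5*, 1.14 ± 0.18 in *rict-1* and 1.2 ± 0.18 in *rict-1; fbxl-5*. *hphd-1* held 12305, 13565 and 14056 in wild-type, 7867, 6521 and 8013 in *lin-29* and 6897, 2643 and 5493 in *lin-29; fbxl-5*. Of the 5 shunt genes, 4 were called lower in *lin-29*, 4 in *lin-29; fbxl-5*, 1 in *rict-1* and 3 in *rict-1; fbxl-5*, and none was called higher in any of these. Of all genes, 18.4%, 19.5%, 5.78% and 3.56% were called lower in these genotypes. The median log2 fold change of the 5 was -0.58 in *lin-29* and -1.15 in *lin-29; fbxl-5*, beside -0.01 and -0.03 over all genes tested. *lin-29; fbxl-5* replicate 2 was the lowest library of the 18 for *acdh-1*, *ech-6*, *hach-1* and *hphd-1*. The canonical, B12-dependent route had 5 of 6 genes called lower in *lin-29*, among them *pcca-1* (-0.43 ± 0.09), *pccb-1* (-0.49 ± 0.09), *mce-1* (-0.57 ± 0.13) and *mmaa-1* (-0.44 ± 0.07), while *mmcm-1* was called nowhere.

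The largest difference of the 58 genes belonged to *ech-9*, annotated as an enoyl-CoA hydratase and located on chromosome IV, bases 10233310 to 10235329 of the minus strand (WBcel235). Wild-type libraries held 9.36, 19.9 and 25.4 normalized counts and *rict-1* libraries 1291, 1554 and 1364. The means differed 76.9-fold, and the log2 fold change was 6.29 ± 0.52 (limma adjusted p = 5.1e-07). *rict-1; fbxl-5* libraries were also high, at 1138, 1073 and 1304. *lin-29* libraries stood between, at 71.9, 100 and 69.2, above every wild-type library (2.17 ± 0.52) and below every *rict-1* library (-4.12 ± 0.52). In *lin-29; fbxl-5* 2 libraries were at 70.3 and 89.1 and the third at 414. Its neighbour *ech-8*, 1296 bases away on the same strand, was at 219 to 260 in wild-type, 275 to 328 in *rict-1* and 212 to 351 in *lin-29*, and was called in no comparison.

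*hacd-1* and *ech-7* moved in opposite directions in *lin-29* and *rict-1*. *hacd-1*, a hydroxyacyl-CoA dehydrogenase, held 1161, 1279 and 1617 normalized counts in wild-type and 5206, 5099 and 5136 in *rict-1*, a log2 fold change of 1.94 ± 0.49 (limma adjusted p = 0.0090). In *lin-29* the libraries held 213, 334 and 811, all below wild-type and widely spread (-1.79 ± 0.49). The difference between *lin-29* and *rict-1* was -3.73 ± 0.49 (limma adjusted p = 3.5e-05). *ech-7* held 1457, 1719 and 2122 in wild-type, 459, 559 and 1107 in *lin-29* and 3455, 3920 and 3358 in *rict-1*. No library of one genotype crossed into another, with fold changes of -1.41 ± 0.22, 1.03 ± 0.22 and, between the mutants, -2.44 ± 0.22. The *rict-1* call of *hacd-1* held in 6 of 13 alternative fits and its *lin-29* call in 5, whereas the difference between both mutants held in all 13.

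Some other enoyl-CoA hydratase genes were not called against wild-type in any mutant. *ech-1.2* ran from 8799 to 10465 in wild-type and 7401 to 9062 in *rict-1*, and was called between *lin-29* and *rict-1* alone (0.36 ± 0.10). *ech-4* and *ech-1.1* were called nowhere. *ech-2* was lower in both mutants, at 741 to 853 in wild-type, 573 to 710 in *lin-29* and 579 to 633 in *rict-1*. It overlaps *tag-30* on the same strand, so reads may have been shared between both. The library kit does not mark strand, so *acdh-3* (with *knl-2*), *ech-4* (with R06F6.12), *ech-3* (with F43H9.3) and *maoc-1* (with E04F6.6) could also share reads with a gene on the opposite strand. *kat-1*, the mitochondrial thiolase, fell in both mutants, from 5658, 5380 and 5293 to 3735, 3556 and 4083 in *lin-29* and 4090, 3431 and 3916 in *rict-1*, by 0.52 ± 0.09 in each.

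Among the peroxisomal genes, the acyl-CoA oxidases did not move as one. *acox-1.6* rose in *lin-29* from 171, 232 and 201 normalized counts to 613, 667 and 633 and in *rict-1* to 330, 335 and 346, log2 fold changes of 1.67 ± 0.13 and 0.75 ± 0.13. *acox-3* rose from 485, 522 and 581 to 1146, 1384 and 1787 and to 790, 837 and 780, by 1.42 ± 0.16 and 0.60 ± 0.16. For both genes *lin-29* exceeded *rict-1*, which exceeded wild-type, with no overlap. *acox-1.2* fell, from 262, 313 and 282 in wild-type to 94.9, 148 and 220 in *lin-29* and 47.2, 87.2 and 67.2 in *rict-1* (-0.96 ± 0.28 and -2.11 ± 0.28).

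*acox-1.1* to *acox-1.4* lie in a row on the plus strand of chromosome I, with gaps of 52, 343 and 34 bases, and their similarity could have affected how reads were assigned. *acox-1.1*, which encodes the main oxidase of ascaroside shortening, was at 788 to 925 in wild-type, 753 to 1237 in *lin-29* and 828 to 1061 in *rict-1*, and was called nowhere. Neither was *acox-1.3*, and *acox-1.4* was called only in *lin-29; fbxl-5*, at 303, 144 and 203 against 401, 401 and 456. *acox-1.5*, alone on chromosome III, held 2561, 2650 and 2550 in *rict-1* against 1007, 1155 and 1101 in wild-type, a separation of 1.25 ± 0.33 that missed the threshold (limma adjusted p = 0.010).

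Of the later enzymes of the peroxisomal cycle, *daf-22* and *dhs-28* rose in both mutants. In *rict-1*, *daf-22*, the thiolase, rose from 1192, 1286 and 1399 in wild-type to 1721, 1882 and 1681 (0.45 ± 0.11). There *dhs-28*, the dehydrogenase, rose from 2265, 2615 and 2665 to 4424, 4743 and 4271 (0.83 ± 0.12). *maoc-1*, the hydratase, held 1601, 1887 and 1536 in *rict-1* against 1035, 1117 and 1333 in wild-type. Its difference of 0.53 ± 0.14 was just short of a call (limma adjusted p = 0.010). In *lin-29* *daf-22* rose by 0.43 ± 0.11 and *dhs-28* by 0.63 ± 0.12. Of the 10 genes listed for this route, 4 were called higher and 1 lower in each of the mutants, against 22.6% higher and 18.4% lower of all genes in *lin-29* and 10.7% and 5.78% in *rict-1*. Their median log2 fold changes were 0.26 in *lin-29* and 0.56 in *rict-1*, beside -0.01 and -0.03 over all genes.

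Loss of *fbxl-5* in otherwise wild-type animals lowered 4 synthetases. *acs-3* fell from 144, 151 and 124 normalized counts to 56.2, 87.7 and 56.0, by 1.08 ± 0.20 on the log2 scale (limma adjusted p = 0.0032). *acs-7* fell from 243, 244 and 293 to 151, 134 and 154 (-0.82 ± 0.17), *acs-12* from 227, 251 and 270 to 171, 139 and 146 (-0.71 ± 0.13), and *acs-17* from 483, 590 and 777 to 343, 330 and 335 (-0.85 ± 0.16). In each the 2 genotypes did not overlap, and replicate 3, the library rich in ribosomal RNA, lay within or beside the other *fbxl-5* libraries. Leaving out any 1 of the 6 libraries brought the count to between 0 and 2, with 0 without *fbxl-5* replicate 3 or without wild-type replicate 2, 1 without wild-type replicate 3, *fbxl-5* replicate 1 or *fbxl-5* replicate 2, and 2 without wild-type replicate 1.

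Small differences in the same direction were common. In 40 of the 58 genes the log2 fold change was below 0, against 52.8% of all genes, with a median of -0.17 beside -0.02. All 3 *fbxl-5* libraries lay below all 3 wild-type libraries in 28 genes, or 48.3%, and above them in 5, against 21.6% and 18.4% of all genes. Of the genes separated downwards but not called, the most negative were *acdh-2* (-1.22 ± 0.55), *acox-1.2* (-1.03 ± 0.28) and *acs-6* (-0.98 ± 0.41). Upwards, the largest were 2 genes of few reads, *acs-18* at 4.68, 3.51 and 5.45 in wild-type and 8.84, 14.5 and 16 in *fbxl-5* (1.32 ± 0.64) and *acdh-5* at 1.17, 7.03 and 6.36 against 9.64, 10.6 and 10.3 (1.15 ± 0.52). A fit restricted to the 6 libraries called 19 genes, all lower, against 14% of all genes (8.57% lower). DESeq2 called 11, all lower, against 6.24% of all genes (4.13% lower). The 7 intestine markers summed to 18208 to 18998 in *fbxl-5*, above wild-type, with 0 of 7 called. The 6 epidermis markers summed to 10442 to 11100, below wild-type, with 0 of 6 called. Their median log2 fold change was 0.56, above 0, since *col-19* weighs most in the sum. Sperm markers, at 82.3 to 124, lay above wild-type (36.3 to 73.7), with 0 of 7 tested called. Early embryo markers, at 249 to 273, lay below wild-type (342 to 462), with 0 of 7 tested called. Sums of the muscle, neuron, and oocyte and germline lists overlapped wild-type, with 1 of 9 oocyte and germline markers called lower. The part of any list in these differences was not tested.

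In *lin-29* animals the loss of *fbxl-5* gave 8 calls, 1 higher and 7 lower, or 13.8% of the 58 genes against 5.82% of all genes (1.32% higher and 4.50% lower). *acs-22* went from 2698, 2860 and 3024 in *lin-29* to 1334, 1232 and 1553 in *lin-29; fbxl-5*, falling by 1.06 ± 0.09 (limma adjusted p = 4.2e-07). Wild-type held 1513, 1600 and 1653, so 2 libraries of the double mutant lay below wild-type and 1 within its range, while *lin-29* lay above it. *acox-1.6* fell from 613, 667 and 633 to 258, 316 and 269 (-1.18 ± 0.13), still above every wild-type library. *acs-14* fell from 1503, 1882 and 1345 to 688, 915 and 992 (-0.87 ± 0.12). *acox-1.5* fell from 1101, 1193 and 835 to 176, 261 and 707, by 1.69 ± 0.33, with a wide spread in the double mutant.

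*ech-7* was the 1 gene that rose, from 459, 559 and 1107 to 1550, 1260 and 1553, by 1.14 ± 0.22 (limma adjusted p = 0.0031). That brought it back into the wild-type range of 1457 to 2122 but for 1 library. *acs-5* (-0.50 ± 0.10), *acs-1* (-0.45 ± 0.10) and *maoc-1* (-0.61 ± 0.14) completed the list. The count fell to 3 without *lin-29* replicate 2 and to 4 without *lin-29; fbxl-5* replicate 2, and fitting only the 6 libraries of both genotypes called just *acs-22* and *acox-1.6*, with 0.468% of all genes called. All 7 *acox* genes had log2 fold changes below 0, from -1.69 to -0.34. Of all 58 genes 41 did, or 70.7%, against 54.2% of all genes tested, with a median of -0.24 beside -0.03 over all genes. Intestine markers moved with them, with 4 of 7 called lower and sums of 10562 to 14989 in *lin-29; fbxl-5* against 15887 to 21255 in *lin-29*, and their part was not tested.

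**Figure D5:**
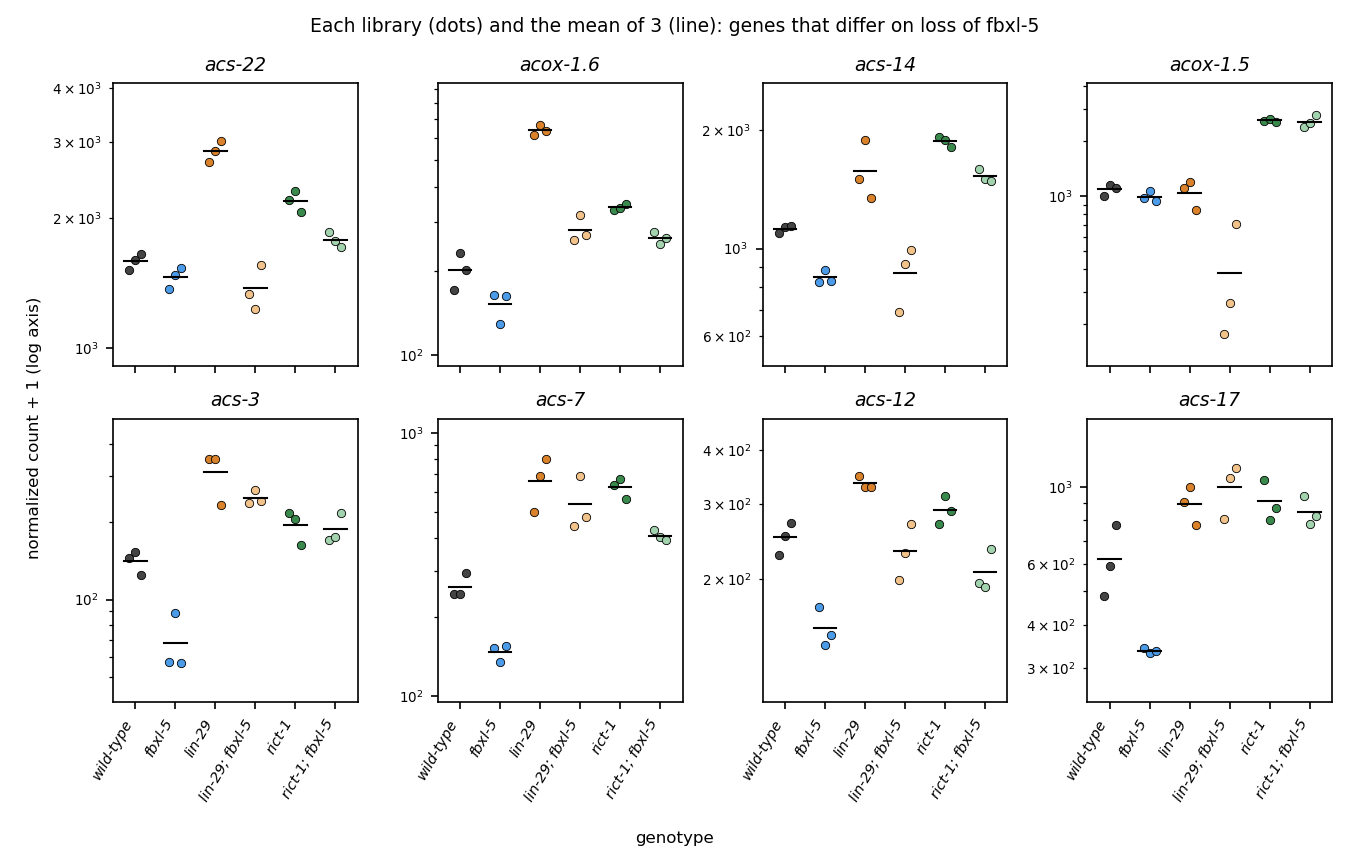
Normalized count + 1 (log axis) of 8 genes in each library (dots) of the 6 genotypes, with the mean of 3 (line). *acs-22* falls from 2698 to 3024 in *lin-29* to 1232 to 1553 in *lin-29; fbxl-5*, whereas *acs-3*, *acs-7*, *acs-12* and *acs-17* are lower in *fbxl-5* than in wild-type.

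In *rict-1* animals none of the 58 genes was called on loss of *fbxl-5*, against 1.39% of all genes. However, 18 of the 58, or 31%, had an unadjusted limma p under 0.05, against 12.6% of all genes. The log2 fold change was below 0 in 36 of the 58, against 48.3% of all genes. edgeR called 0 and DESeq2 called 1, against 3.58% of all genes by DESeq2. The most negative differences were those of *ech-7*, from 3455, 3920 and 3358 to 1841, 1847 and 1767 (-0.97 ± 0.22), of *hacd-1*, from 5206, 5099 and 5136 to 3261, 2915 and 3007 (-0.75 ± 0.49), and of *acs-7*, from 633, 669 and 563 to 427, 401 and 393 (-0.61 ± 0.17). In each, the double mutant lay wholly below *rict-1* and, for *hacd-1* and *acs-7*, wholly above wild-type. Same-numbered libraries of these genotypes deviated together, and with the replicate number as a block in a fit of these 6 libraries 14 genes were called, 10 lower and 4 higher, against 10.1% of all genes in that fit (6.29% lower and 3.77% higher). Those higher were *acs-10*, *acs-18*, *cpt-4* and *cpt-5*, and the lower ones included *ech-7*, *hacd-1*, *acs-7*, *acs-22*, *acs-14* and *acox-1.3*.

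Whether the effect of *fbxl-5* loss differed between backgrounds was tested as an interaction. With *lin-29* 1 of the 58 genes was called, *acs-22*, against 2.40% of all genes. Its effect of *fbxl-5* loss was -0.12 ± 0.09 in wild-type animals and -1.06 ± 0.09 in *lin-29*, a difference of -0.94 ± 0.12 (limma adjusted p = 0.00022) that remained called in all 19 alternative fits. By adjusted p, *acs-17* (1.00 ± 0.23) and *acox-1.6* (-0.78 ± 0.18) came next and missed the threshold. *acdh-2* (2.85 ± 0.77) and *acdh-5* (-2.46 ± 0.74) had larger values with larger errors and were not called. With *rict-1* none of the 58 was called, against 0.854% of all genes. An unadjusted limma p under 0.05 was found for 8 of them, or 13.8%, against 17.4% of all genes. edgeR called 0 there and DESeq2 1.

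Other lipid genes were followed in lists beside the 58, and their counts stand against 41.0% of all genes called in *lin-29* and 16.4% in *rict-1*, with medians of -0.01 and -0.03. Of 12 lipases and lipid droplet genes tested, 5 were higher and 1 lower in *lin-29*, and 4 were higher in *rict-1*, with median log2 fold changes of 0.62 and 0.53. Lysosomal lipase genes led both: *lipl-2* rose from 14, 18.7 and 12.7 normalized counts to 508, 573 and 1056 in *lin-29*, and *lipl-1* from 2.34, 5.86 and 3.63 to 126, 145 and 225 in *rict-1*. *lipl-5*, at 3796, 4374 and 4038 in wild-type, rose to 8504, 8807 and 8880 in *rict-1* and was at 4212, 3650 and 4549 in *rict-1; fbxl-5*, a fall of 1.08 ± 0.13. *atgl-1*, the main lipase of lipid droplets, was called nowhere.

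Of 13 regulators of lipid genes, 5 were higher and 2 lower in *lin-29* and 5 were higher in *rict-1*, with medians of 0.12 and 0.41. Of all genes, 41.0% were called in *lin-29* and 16.4% in *rict-1*. *pqm-1* rose by 2.42 ± 0.17 and 1.68 ± 0.17, and *hlh-30*, the homologue of the lysosomal regulator TFEB, by 1.01 ± 0.10 and 0.80 ± 0.10. *sbp-1*, the homologue of SREBP, rose in *rict-1* by 1.01 ± 0.10 and fell on loss of *fbxl-5* there by 0.57 ± 0.10. *nhr-10* and *nhr-68*, regulators of the propionate shunt, fell in *lin-29; fbxl-5* by 0.46 ± 0.08 and 0.65 ± 0.14, and *nhr-68* was not called in *lin-29* or *rict-1*. Among 5 peroxisomal transporters, *pmp-4* rose by 1.15 ± 0.10 in *lin-29* and 1.02 ± 0.10 in *rict-1*, while *pmp-5* fell by 1.14 ± 0.27 in *rict-1*. Of 11 peroxins, the proteins that assemble peroxisomes, 1 was higher and 1 lower in *lin-29* and 2 were higher in *rict-1*. Of 8 other oxidation and electron transfer genes tested, 1 was higher (*lbp-5*, 1.64 ± 0.17) and 1 lower (*acaa-2*, -0.43 ± 0.08) in *lin-29*.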

How the data were processed

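mRNA-Seq libraries (TruSeq RNA v2, which does not mark strand, single-end 50-base reads) were aligned by the authors to the WS260 genome. The submitters' processing notes name STAR, featureCounts of the Subread package and DESeq2, without versions. The authors deposited 1 table of 24998 genes by 18 libraries, whose values are a signal: read counts divided by the DESeq2 size factor of the library. Dividing by the value of 1 read gave whole read counts for 100% of the values (tolerance 0.01). The 7 deposited tables of the authors' own comparisons hold, for genes of each comparison, a mean, a fold change with its error and statistic, and p-values, and were not used.

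Genotypes came from the labels. limma 3.58.1 in R 4.3.3 was fitted to log2(normalized count + 1) of the 13472 genes with a mean of at least 10, with 1 mean per genotype over all 18 libraries and variances moderated with a trend and a robust prior. Calls were made at an FDR of 0.01 (Benjamini-Hochberg) over these genes. Errors are standard errors of the fit, and fold changes on this scale understate those of low genes. Interactions were contrasts of contrasts. The 58 genes and the lists were chosen with earlier results of these data known, and give no independent support to a pattern. Genes are named by rule: in each comparison the 6 largest called rises and falls whose libraries separated, members with well known roles, the highest and lowest member of each prefix, and the largest called genes of each list. The 4 members called lower with *fbxl-5* loss, the members nearest the minimum and those with overlapping genes are named besides.

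Alternatives were a pseudocount of 5, no filter on low values, TMM scaling, edgeR 4.0.16 (quasi-likelihood test) and DESeq2 1.42.0 (Wald test) on the recovered counts, only the libraries of the comparison, the replicate number as a block, and each library left out in turn. Same-numbered libraries were checked for shared deviations from their genotype means across genes. Those of *rict-1* and *rict-1; fbxl-5* correlated at 0.65, 0.39 and 0.24, each over 0.1. An added fit of these libraries alone therefore took the replicate number as a block. That choice rests on the values alone, as the labels state no pairing. The main fit did not use the pairing. For every other pair of genotypes the correlations were not all over 0.1. Symbols were matched to 92.7% of the WormBase identifiers, and positions and exon lengths from the WBcel235 annotation, which covered all 58 genes. Reads of 13434120 to 29733059 per library set the counting precision. The fit was tested on simulated counts.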

Additional observations from a re-analysis of the deposited data

Results flagged for a closer look

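The effect of *fbxl-5* loss on *acs-22* differed between backgrounds by the test of the interaction. It differed by -0.94 ± 0.12 on the log2 scale, *lin-29* minus wild-type background (limma, Benjamini-Hochberg adjusted p = 0.00022). All 3 *lin-29; fbxl-5* libraries (1334, 1232 and 1553 normalized counts) lay below all 3 *lin-29* libraries (2698, 2860 and 3024), while *fbxl-5* (1369, 1477 and 1529) and wild-type (1513, 1600 and 1653) overlapped.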

How the results depend on the processing

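The count of the 58 genes called was 4 for *fbxl-5* against wild-type (11 by DESeq2, 19 in a fit of only the libraries of the comparison, 0 to 2 without 1 library), 30 for *lin-29* (23 to 29 without 1 library) and 31 for *lin-29; fbxl-5* (18 in the fit of only its libraries, 25 to 31 without 1). It was 8 for *lin-29; fbxl-5* against *lin-29* (15 by DESeq2, 2 in only its libraries, 3 to 8 without 1), 18 for *rict-1* (12 to 16 without 1, the lowest without wild-type replicate 1 or *rict-1* replicate 2) and 10 for *rict-1; fbxl-5* (20 in only its libraries, 6 to 8 without 1, the lowest without wild-type replicate 1 or *rict-1; fbxl-5* replicate 3). It was 0 for *rict-1; fbxl-5* against *rict-1* (1 by DESeq2, 3 in only its libraries, 14 with the replicate block as well, which was chosen after seeing the data, 0 without any 1 library) and 21 for *lin-29* against *rict-1* (14 to 21, the lowest without *rict-1* replicate 3). Interactions gave 1 with *lin-29* (4 by DESeq2, 1 to 2 without 1 library, 2 without wild-type replicate 1, *fbxl-5* replicate 2, *lin-29* replicate 3 or *lin-29; fbxl-5* replicate 1 or 3) and 0 with *rict-1* (1 by DESeq2, 4 in only its libraries, 1 with the replicate block, 0 without any 1). Otherwise the replicate block of all 18 libraries moved no count by over 1.5 times (5 for *fbxl-5*, 10 for *lin-29; fbxl-5* against *lin-29*). The causes were not tested. Calls held in all alternatives for 21 of 30 genes in *lin-29*, 10 of 18 in *rict-1*, 16 of 31 in *lin-29; fbxl-5* and 0 of 4 in *fbxl-5*. Of 3328 values of named genes under alternatives, 3127 kept their side of the threshold, 149 lost the call and 52 gained it. No value called in either fit reversed direction. Changes of sign where neither fit gave a call were not counted as reversals. Genes near the minimum, such as *acs-18* and *acdh-5*, rest on few reads.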

Other observations

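Some genes, picked after their values were seen, were uneven among the 3 libraries of a genotype carrying the *lin-29* mutation. *lin-29; fbxl-5* replicate 3 held 414 normalized counts of *ech-9*, 791 of *acdh-2*, 1216 of *hacd-1* and 707 of *acox-1.5*, each the highest of its genotype, where the higher of the other two held 89.1, 154, 364 and 261. *lin-29* replicate 3 held 811 of *hacd-1* and 1107 of *ech-7*, against 213 and 334, and 459 and 559. *lin-29; fbxl-5* replicate 2 held 8829 of *acdh-1*, against 22979 and 14993. Groups of 3 are too small for a test of a single library. The *pmp-1* transporter gene was also highest there, at 842 in *lin-29; fbxl-5* replicate 3 against 173 and 385.

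At the low end, *acs-10* and *acs-18* were higher in *rict-1; fbxl-5* than in *rict-1* in all 3 libraries, at 28.1, 18.6 and 47.3 against 5.25, 12.5 and 11.2, and at 18.2, 16.1 and 36.3 against 1.75, 7 and 12.1. Neither was called in the fit of all libraries (1.58 ± 0.57 and 1.8 ± 0.64 on the log2 scale). The 8 sperm markers moved with them, with sums of 49 to 77.5 in *rict-1* and a median of 176 and a highest of 281 in *rict-1; fbxl-5*, where 3 of the 7 tested were called higher than in wild-type and 0 higher than in *rict-1*, and their part was not tested.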
